A study of Mus musculus with 40 samples.

Results

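Zfp352, Usp17la and Ubtfl1 are 3 mouse genes whose transcripts were lower on arrays of 1-cell embryos when RNA polymerase II was inhibited. They were chosen by measured values, namely the differences between α-amanitin-treated and untreated 1-cell embryos, and they are 3 of 14916 genes tested. For each gene the probe set with the highest mean over all arrays was used, among probe sets annotated to that gene alone. All 3 genes had such a probe set and passed the filter on dim values, which asked for a value above the median of all values on at least 4 arrays.

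The arrays were Affymetrix mouse arrays hybridized with poly(A) RNA of whole B6D2 embryos at the 1-cell and the 2-cell stage. At each stage 5 groups were measured: fertilized embryos, fertilized embryos cultured with α-amanitin, embryos made by somatic cell nuclear transfer (SCNT), SCNT embryos cultured with α-amanitin, and parthenogenetic embryos, which hold no paternal genome. Each group has 4 arrays, except that 1 column of the untreated 1-cell SCNT embryos is empty, so that group has 3 and 39 arrays were used in all. The letter A in sample titles was read as α-amanitin, which the labels spell out for most SCNT samples but not for the fertilized ones. The labels name MEMα as culture medium of SCNT embryos and KSOM for a single fertilized sample, so medium and origin cannot be told apart where these groups are compared. The dose and hours of α-amanitin, the age of the embryos in hours and the number of embryos per array are not given in the sources used here. Nor do the labels say that replicates are separate collections of embryos, so the p-values rest on the spread between these arrays alone, which may be technical.

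The mouse zygote starts with RNA stored by the oocyte, and its own genome is switched on in a minor wave in the 1-cell embryo and a major wave in the 2-cell embryo. α-Amanitin binds RNA polymerase II and stops the synthesis of messenger RNA, so transcripts that need new synthesis are lower with it, while those stored by the oocyte need not be. Zfp352 encodes a zinc finger protein and is known as a gene of the 2-cell embryo. Usp17la, also called Dub1, encodes a deubiquitinating enzyme of the USP17 family, which removes ubiquitin from other proteins. Ubtfl1, also called Hmgpi, encodes an HMG-box protein of the early embryo that is related to UBTF, a transcription factor of RNA polymerase I.

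Zfp352 lies at chr4:90218820-90225687, Usp17la at chr7:104857016-104862667 and Ubtfl1 at chr9:18404418-18411502 (RefSeq, GRCm38.p6), and all 3 are annotated as protein coding on the plus strand. The 250 bases before each annotated start are shown because the 3 genes moved together over the groups, which the choice of the genes fixed in part. They come from RefSeq, GRCm38.p6, plus strand, 5′ to 3′, and span chr4:90218570-90218819 for Zfp352, chr7:104856766-104857015 for Usp17la and chr9:18404168-18404417 for Ubtfl1. Capitals mark TAATCC (reverse complement GGATTA), the core bound by bicoid-type homeodomain proteins such as those of the OBOX family, and CCAAT (reverse complement ATTGG), the core of the CCAAT box.
Zfp352: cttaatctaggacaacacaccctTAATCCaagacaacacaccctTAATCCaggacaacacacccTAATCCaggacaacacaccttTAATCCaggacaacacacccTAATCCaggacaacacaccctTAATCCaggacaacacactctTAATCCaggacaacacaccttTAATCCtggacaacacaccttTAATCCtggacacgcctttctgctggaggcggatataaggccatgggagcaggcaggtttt
Usp17la: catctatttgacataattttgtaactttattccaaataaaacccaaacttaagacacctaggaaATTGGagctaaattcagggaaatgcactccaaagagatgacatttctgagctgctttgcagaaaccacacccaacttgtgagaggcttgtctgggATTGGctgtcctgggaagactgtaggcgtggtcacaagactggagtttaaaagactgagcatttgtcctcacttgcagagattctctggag
Ubtfl1: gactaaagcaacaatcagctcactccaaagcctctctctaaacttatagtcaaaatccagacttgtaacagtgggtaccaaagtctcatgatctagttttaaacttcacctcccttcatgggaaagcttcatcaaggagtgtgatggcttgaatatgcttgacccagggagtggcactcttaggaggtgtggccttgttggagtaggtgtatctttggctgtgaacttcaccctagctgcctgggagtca

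The Zfp352 window held 9 matches to TAATCC, all on the plus strand, starting from position -227 to position -61 and spaced 20 or 21 bases apart. At least 1 match on either strand was found in 2054 of 32851 RefSeq windows of the same length (6.252%), and 9 matches were found in 1 window, that of Zfp352. The matches lie in a tandem repeat: between neighbours, 13 to 20 of the 20 bases that start at each match were identical, so the 9 copies do not count as separate occurrences. The Usp17la window held 2 matches to CCAAT, both on the minus strand, at positions -186 and -91, and 33.85% of windows held at least 1. TAATCC was not found in the Usp17la and Ubtfl1 windows. Neither TATAAA (reverse complement TTTATA; 12.37% of windows) nor GGGCGG (reverse complement CCGCCC; 32.74%) was found in any of the 3, and none of the matches overlapped another. The motifs were picked after the windows had been read. A match is a description of the letters, and its absence says only that these letters are not in the window.

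**Figure D1:**
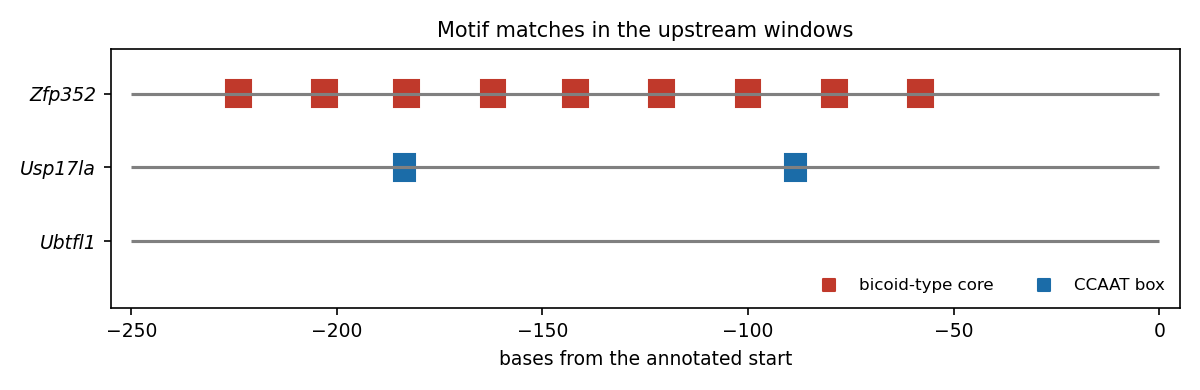
Matches to the bicoid-type core (red) and the CCAAT box (blue) in the 250 bases before the annotated start of each gene, drawn to scale with the distance from the start in bases on the horizontal axis. The 9 red matches of Zfp352 follow each other every 20 or 21 bases, Usp17la has 2 blue matches, and Ubtfl1 has none of either.

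Values are probe set intensities scaled by the authors, and differences are on the scale of log2(intensity + 6.9) after quantile normalization, where the median of all values is 5.34. Correlations between replicates of a group lay between 0.940 and 0.980. Of 10 oocyte and embryo markers, 9 were tested, and their summed intensity lay between 8758 and 48125 over all arrays. The summed intensity of 12 tested cumulus markers (of 15 listed) was 588 to 814 in untreated 1-cell fertilized embryos and 672 to 724 in 1-cell SCNT embryos, whose donor nuclei came from cumulus cells. That of 4 tested sperm markers (of 8 listed) was 87.1 to 263.6 over all arrays. The poly(A) spike-in probe sets were near background on the 1-cell SCNT arrays, with mean log2 values of 3.60 without and 3.73 with α-amanitin, against 5.88 to 9.60 in the other groups.

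The 1-cell differences with α-amanitin, by which the genes were selected, are described first. Zfp352 intensities in untreated fertilized 1-cell embryos were 209, 64, 125 and 70.5 in replicates 1 to 4, and with α-amanitin they were 29.4, 25.1, 37.1 and 32.4. In 1-cell SCNT embryos they were 676, 554 and 813 in the 3 arrays with values, and 66.3, 55.9, 56 and 95.7 with α-amanitin. Every treated array was below every untreated array in both origins. The log2 difference was -1.23 (SE 0.25) in fertilized and -3.11 (SE 0.27) in SCNT embryos, the lowest of all 14916 genes in SCNT embryos. The second probe set of Zfp352, of a type that can share probes with related sequences, gave -1.37 and -3.15.

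Usp17la in fertilized 1-cell embryos had intensities of 972.5, 321, 323 and 288.5 without and 92.5, 75.6, 77.6 and 144.3 with α-amanitin. In SCNT embryos the values were 572, 486 and 606 without and 204, 225, 234 and 136 with the inhibitor. The groups did not overlap in either origin. The log2 difference was -1.83 (SE 0.24) in fertilized and -1.43 (SE 0.26) in SCNT embryos. Without replicate 1 of the untreated fertilized embryos, whose 972.5 was far above the other arrays of its group, the difference in fertilized embryos was -1.42, and the groups still did not overlap.

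Ubtfl1 was dim at this stage. In fertilized 1-cell embryos its intensities were 62.5, 21.6, 4.2 and 12.3 without and 9.3, 1.4, 9.8 and 8.4 with α-amanitin, and 1 of the 4 untreated arrays was above the median of all values. These groups overlapped, and the log2 difference was -0.71 (SE 0.36, 95% interval -1.43 to 0.02), so the fall that the choice of the gene rests on was within the spread between arrays in fertilized embryos. Without replicate 1 of the untreated fertilized embryos, at 62.5, the difference was -0.23. In SCNT embryos the values were 53.2, 36.8 and 50.3 without and 4.3, 0.2, 7.5 and 10.7 with the inhibitor, and the groups did not overlap. The log2 difference there was -2.16 (SE 0.39), the second lowest of all genes. Since the treated values are at background its size depends on the constant added before the logarithm, and it was -2.94 with a constant of 1.8 and -1.34 with 22.1.

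Of all genes, 2.45% were called lower with α-amanitin in fertilized 1-cell embryos and 0.349% in SCNT 1-cell embryos (limma, Benjamini-Hochberg adjusted p under 0.05), which is given as background only, since this contrast chose the genes. In fertilized embryos this share was 6.84% on the values as deposited and 1.04% after median centring. Genes past that threshold in both origins numbered 7, which is 1.92% of the fertilized and 13.5% of the SCNT calls. Zfp352 and Usp17la are among them as the choice of the genes would have it, and Ubtfl1 is not. The others are Gm7969, Ctsl, which encodes a lysosomal protease, Ppat, which encodes the first enzyme of purine synthesis, Ero1a, which encodes an oxidase of the endoplasmic reticulum, and Selenos, which encodes a selenoprotein of the same compartment. Ctsl differed by -1.38 (SE 0.17) and -0.84 (SE 0.18), and Ppat by -0.75 (SE 0.22) and -1.16 (SE 0.23), in fertilized and SCNT embryos. All 7 were also called lower with α-amanitin in both origins at the 2-cell stage, where 25.8% (fertilized) and 29.7% (SCNT) of all genes were. The share of all genes called lower in both was not computed.

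**Figure D2:**
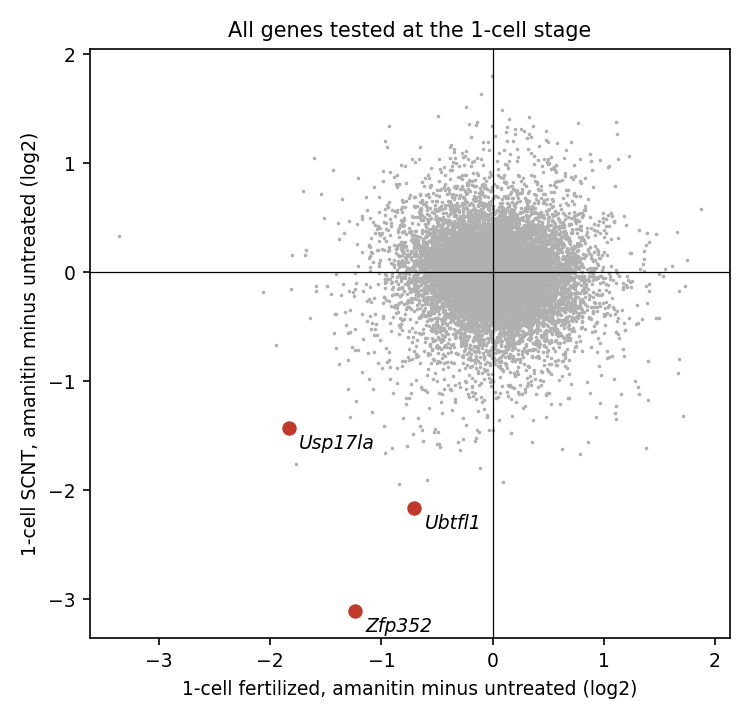
Difference between α-amanitin-treated and untreated 1-cell embryos (log2) for every gene tested, fertilized embryos on the horizontal and SCNT embryos on the vertical axis, each grey point 1 gene and the 3 chosen genes in red. Zfp352 lies at -1.23 and -3.11, Usp17la at -1.83 and -1.43, and Ubtfl1 at -0.71 and -2.16; the genes were selected on these values.

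The 2-cell arrays were not used to choose the genes. Earlier results of these data were known when the genes were chosen, however, so the 2-cell falls are not fully independent of the choice. On the 2-cell arrays all 3 genes fell with α-amanitin in both origins, by at least 9.94-fold on the scale tested. Ubtfl1 had the largest fall, from bright to background. Of all genes, 25.8% were called lower with α-amanitin in fertilized and 29.7% in SCNT 2-cell embryos, 38.6% and 39.6% were called higher, and the median gene was 0.27 and 0.28 higher.

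Ubtfl1 intensities in untreated fertilized 2-cell embryos were 2714, 3074, 3651 and 2990.2, and with α-amanitin 1.7, 12.7, 25.1 and 12.3. In SCNT embryos they were 1112, 1746, 2029 and 1769 without and 9.3, 4.4, 12.8 and 23.3 with the inhibitor. Every treated array was below the median of all values. The log2 differences were -7.58 (SE 0.36, adjusted p = 3.88e-21) and -6.86 (SE 0.36, adjusted p = 6.79e-20), ranks 8 and 29 from the lowest of all genes. With a constant of 1.8 they were -8.22 and -7.47, and with 22.1 they were -6.64 and -5.89.

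Zfp352 intensities were 2458, 2253, 3417 and 2613 in fertilized 2-cell embryos, and 53.9, 119.9, 120.3 and 134.6 with α-amanitin. In SCNT embryos they were 2586, 1991, 1952.5 and 1791 without and 149.8, 92.6, 170 and 104.8 with it. The treated arrays stayed above the median of all values, unlike those of Ubtfl1. The log2 differences were -4.63 (SE 0.25, adjusted p = 3.63e-19) and -4.23 (SE 0.25, adjusted p = 4.26e-18).

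Usp17la intensities were 2126, 2066, 2927 and 2053.5 in fertilized 2-cell embryos and 192, 229.9, 194.2 and 220.3 with α-amanitin. In SCNT embryos they were 1456, 980.5, 1961 and 1327 without and 70.8, 97.1, 90 and 137.7 with it. No treated array reached an untreated one. The log2 differences were -3.31 (SE 0.24, adjusted p = 2.99e-15) and -4.06 (SE 0.24, adjusted p = 4.27e-18).

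The fall differed between SCNT and fertilized 2-cell embryos by 0.40 for Zfp352 (95% interval -0.33 to 1.13, adjusted p = 0.414), -0.75 for Usp17la (-1.45 to -0.05, adjusted p = 0.0829) and 0.72 for Ubtfl1 (-0.31 to 1.75, adjusted p = 0.285). None of the 3 was called, where 38.9% of all genes were. The intervals leave room for differences of more than 2-fold. For Usp17la the adjusted p was 0.0491 when the fit held the compared groups alone, and 0.0306 to 0.196 when single arrays were left out. Beside these falls, the 18S probe sets averaged 10.25 in fertilized and 10.81 in SCNT untreated 2-cell embryos against 12.79 and 13.15 with α-amanitin. The summed cumulus markers ran from 2468 to 3787 and from 2928 to 4041 in the same untreated groups, against 756.5 to 1068 and 793 to 987 with it. Of the 12 markers, 1 was called lower in each origin, Amhr2, at -5.78 and -5.99, and 5 were called higher, with medians of 0.42 and 0.54 over the 12. The part of these probe sets in the results was not tested.

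**Figure D3:**
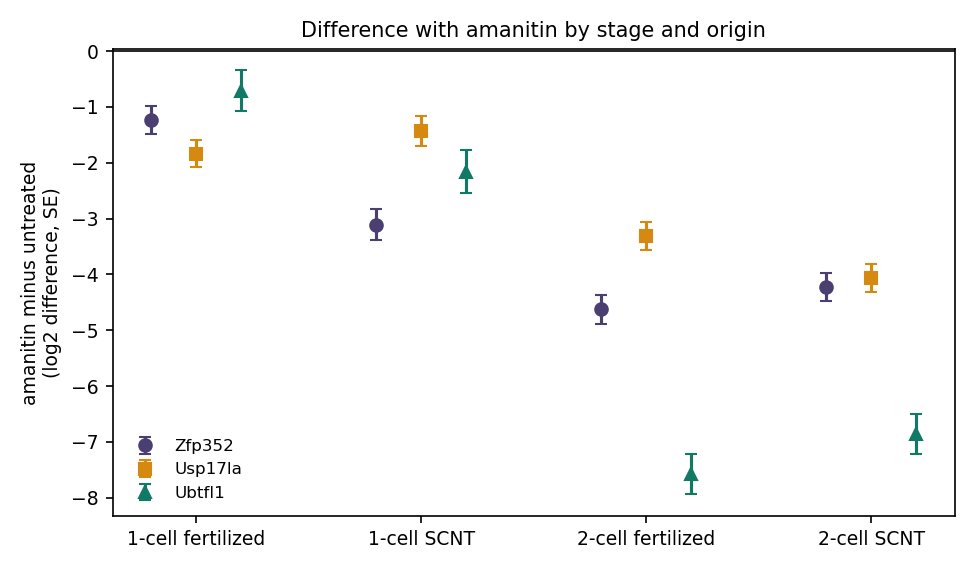
Difference between treated and untreated embryos (log2, fitted difference with SE) for each gene at the 1-cell stage, whose arrays chose the genes, and at the 2-cell stage, whose arrays did not. Earlier results of these data were known when the genes were chosen. At the 2-cell stage the differences lie between -3.31 and -7.58, and Ubtfl1 has the lowest in both origins.

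Other genes of the same processes are given by lists that leave out the 3 genes. All lists were drawn up with earlier results of these data known. A list of genome activation genes by its nature holds genes expected to need new synthesis, so its counts are a description and no independent support. Of 31 tested genome activation genes (42 listed), 27 fell with α-amanitin in fertilized 2-cell embryos and 4 rose, with a median of -3.51. In SCNT embryos 27 fell, 2 rose and 2 were not called, with a median of -3.98. Over all genes, as above, 25.8% and 29.7% fell. Those with the largest differences were Calcoco2, -7.69 (SE 0.40), which encodes an autophagy receptor, and the homeobox genes Crxos, -7.66 (SE 0.36), and Obox6, -7.47 (SE 0.29), in fertilized embryos. At the 1-cell stage 2 of the 31 were called lower in fertilized embryos and 0 in SCNT embryos, against 2.45% and 0.349% of all genes. These 2 were Spz1 (-1.30), a transcription factor gene, and Arg2 (-0.37), an arginase gene that was named after its values were seen.

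Of 43 tested genes for USP deubiquitinases, 9 fell and 20 rose with α-amanitin in fertilized 2-cell embryos, and 9 fell and 26 rose in SCNT embryos; their medians were 0.35 and 0.87. Over all genes 25.8% and 29.7% fell and 38.6% and 39.6% rose, with medians of 0.27 and 0.28. Usp22, a subunit of the SAGA coactivator, differed by -3.80 (SE 0.22), Usp3 by 3.20 (SE 0.13) and Usp50 by -3.17 (SE 0.33) in fertilized embryos, beside -3.31 for Usp17la. The close relatives Usp17lb, Usp17lc, Usp17ld and Usp17le have no probe set annotated to 1 gene, and whether the Usp17la probes also bind their RNA was not tested.

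RNA polymerase I genes, the group to which the relative of Ubtfl1 belongs, mostly fell. Of 20 tested (23 listed), 19 fell and 0 rose in fertilized 2-cell embryos (median -2.10), and 17 fell and 1 rose in SCNT embryos (median -1.98), where 25.8% and 29.7% of all genes fell. The polymerase subunits Polr1c and Polr1e differed by -6.66 (SE 0.18) and -4.93 (SE 0.21), and Taf1c, of the promoter selectivity factor, by -4.77 (SE 0.38). Ubtf itself differed by -2.41 (SE 0.21) and -2.63 (SE 0.21) in the 2 origins, against -7.58 and -6.86 for Ubtfl1. Zfp353-ps, a pseudogene related to Zfp352 by name, was above the median of all values on 0 arrays and was not tested.

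Oocyte transcripts ran the other way. Of 18 tested (20 listed), 14 were higher and 2 lower with α-amanitin in fertilized 2-cell embryos, and 17 were higher and 0 lower in SCNT embryos, against 38.6% and 39.6% of all genes higher. The germ line genes Nobox, Dazl and Ooep differed by 4.81 (SE 0.28), 4.12 (SE 0.14) and 3.36 (SE 0.12) in fertilized embryos. At the 1-cell stage 0 of the 18 were called in either origin. Values are relative to the scaled whole of each array. In SCNT 2-cell embryos the poly(A) spike-ins averaged 7.99 without and 9.60 with α-amanitin, and the hybridization controls 9.59 and 10.88. In fertilized 2-cell embryos they averaged 7.11 and 6.99, and 9.60 and 10.04. The part of the amount of RNA in these differences was not tested.

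Between the 1-cell and the 2-cell stage all 3 genes rose in every origin. The 1-cell arrays of fertilized and SCNT embryos also served the choice of the genes, in another contrast. In fertilized embryos the log2 rise was 4.59 for Zfp352 (SE 0.25, adjusted p = 4.81e-19), 2.51 for Usp17la (SE 0.24, adjusted p = 8.67e-12) and 6.95 for Ubtfl1 (SE 0.36, adjusted p = 6.06e-20). In SCNT embryos it was 1.85 (SE 0.27, adjusted p = 1.87e-07), 1.54 (SE 0.26, adjusted p = 2.85e-06) and 5.05 (SE 0.39, adjusted p = 1.27e-14). In parthenogenetic embryos it was 4.17 (SE 0.25, adjusted p = 3.07e-17), 2.98 (SE 0.24, adjusted p = 1.83e-13) and 4.14 (SE 0.36, adjusted p = 9.51e-13). Of all genes, 25.8%, 26.3% and 21.7% were called higher at the 2-cell stage in these origins; on the values as deposited the last was 30.4%, and after median centring 14.3%.

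Ubtfl1 thus went from intensities of 62.5 or less to 2714 or more in fertilized embryos, while Usp17la, already at 288.5 or more in the 1-cell embryo, had the smallest rise there. The difference between the rises of SCNT and fertilized embryos holds the untreated 1-cell arrays of both origins, and a choice by large 1-cell falls favours high values there, so it is described with no test. It was -2.74 (SE 0.37) for Zfp352, -1.90 (SE 0.53) for Ubtfl1 and -0.97 (SE 0.36) for Usp17la, and for the last -1.38 without replicate 1 of the fertilized 1-cell embryos. Of all genes, 19.0% were called in this comparison, from which nothing is read about the 3. Against parthenogenetic embryos, the rise of Ubtfl1 was larger in fertilized ones (parthenogenetic minus fertilized -2.81, SE 0.51, adjusted p = 2.17e-05), where 35.4% of genes were called. Those of Zfp352 (-0.42, 95% interval -1.14 to 0.31, adjusted p = 0.409) and Usp17la (0.47, -0.23 to 1.17, adjusted p = 0.319) were not called. The comparisons with fertilized embryos share the fertilized arrays, and the 1-cell ones among them also served the choice of the genes.

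With α-amanitin present the differences between the stages were at most 1.20 in size, and their direction varied. The treated 1-cell arrays in them also served the choice of the genes. A choice by large 1-cell falls favours low values there, so these differences are described with no test. Zfp352 was higher at the 2-cell stage by 1.20 (SE 0.25) and Usp17la by 1.03 (SE 0.24) in fertilized embryos. In SCNT embryos Usp17la was lower by -1.10 (SE 0.24) at the 2-cell stage. Zfp352 was higher there by 0.73 (SE 0.25), but its other probe set gave -0.064. Ubtfl1 differed by 0.08 (95% interval -0.65 to 0.81) and 0.35 (-0.38 to 1.08), with all these arrays at background. Of all genes, 40.6% in fertilized and 55.4% in SCNT embryos were called between the stages under α-amanitin, from which nothing is read about these genes.

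Among untreated 1-cell embryos, fertilized ones had the lowest mean of each of the 3 genes. The fertilized and SCNT arrays chose the genes and the parthenogenetic ones did not. Zfp352 in parthenogenetic embryos, whose intensities were 354, 342, 491 and 531, was higher than in fertilized ones by 1.89 (SE 0.25, adjusted p = 4.22e-07). No parthenogenetic array was as low as the highest fertilized one. Ubtfl1 was higher in parthenogenetic embryos, at 155, 181, 147.7 and 177, than in fertilized ones by 2.77 (SE 0.36, adjusted p = 2.38e-07), the largest such difference of all genes. Usp17la in parthenogenetic embryos, at 707, 814, 728 and 581, was higher by 0.75 (SE 0.24, adjusted p = 0.0246). That call of Usp17la ended without any one of 5 arrays (adjusted p up to 0.128), and the difference was 1.16 (adjusted p = 2.12e-05) without replicate 1 of the fertilized embryos, whose 972.5 lies above all parthenogenetic arrays. Of all genes, 20.4% were called between parthenogenetic and fertilized 1-cell embryos.

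Between untreated SCNT and fertilized 1-cell embryos, whose arrays both chose the genes, the differences are described with no test. Zfp352 was at 2.53 (SE 0.27) in SCNT minus fertilized embryos, with no overlap of the arrays, Ubtfl1 at 1.07 (SE 0.39) and Usp17la at 0.40 (SE 0.26), both with overlap. Without replicate 1 of the fertilized embryos the values were 2.83, 1.55 and 0.81. Of all genes, 5.56% were called, from which nothing is read about the 3. That array held the highest value of its group for all 3 genes, for 9 of the 31 genome activation genes and for 30.8% of all genes. The missing spike-in signal of the 1-cell SCNT arrays goes with each of these differences, and its part in them was not tested.

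SCNT and parthenogenetic 1-cell embryos, the former also used in the choice, differed in Ubtfl1, which was lower in SCNT embryos by -1.69 (SE 0.39, adjusted p = 0.00176). Usp17la differed by -0.35 (95% interval -0.88 to 0.19, adjusted p = 0.456), where 14.2% of genes were called. In a fit of these groups alone Usp17la was called (adjusted p = 0.0352). A choice by large 1-cell falls favours high values in untreated SCNT embryos. The higher Zfp352 there, by 0.64 (95% interval 0.09 to 1.20), is therefore described with no test. The poly(A) spike-in probe sets averaged 3.60 in SCNT and 7.36 in parthenogenetic 1-cell embryos, and their part in these differences was not tested. With α-amanitin present, on treated arrays that also served the choice, the differences between SCNT and fertilized 1-cell embryos are described with no test. Usp17la was higher in SCNT embryos by 0.80 (SE 0.24). Zfp352 was higher there by 0.65 (95% interval 0.14 to 1.17), and by 0.80 with its other probe set. Ubtfl1 differed by -0.38 (-1.11 to 0.35). Of all genes, 21.5% were called, from which nothing is read about these genes.

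At the 2-cell stage parthenogenetic embryos stood highest for Zfp352 and Usp17la. Zfp352 intensities there were 8110, 7218, 8035 and 7257, and those of Usp17la were 5164, 5540, 5553 and 4931.5, above every array of the other groups. Over fertilized embryos the log2 difference was 1.47 for Zfp352 (SE 0.25, adjusted p = 5.03e-06) and 1.22 for Usp17la (SE 0.24, adjusted p = 5.41e-05). Ubtfl1, at 2926.5, 2981, 3713 and 2808, differed by -0.05 (95% interval -0.78 to 0.68, adjusted p = 0.932). Below parthenogenetic embryos, SCNT embryos differed by -1.68 for Zfp352 (SE 0.25, adjusted p = 3.38e-07) and -1.79 for Usp17la (SE 0.24, adjusted p = 4.68e-08), and by -0.78 for Ubtfl1 (-1.51 to -0.05, adjusted p = 0.0643). Of all genes, 47.4% were called between parthenogenetic and fertilized and 54.5% between SCNT and parthenogenetic 2-cell embryos.

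Between SCNT and fertilized 2-cell embryos Zfp352 differed by -0.21 (95% interval -0.72 to 0.30, adjusted p = 0.601). Usp17la differed by -0.57 (-1.06 to -0.07, adjusted p = 0.0751) and Ubtfl1 by -0.83 (-1.56 to -0.10, adjusted p = 0.0782), with 30.6% of all genes called. On the values as deposited both were called lower in SCNT embryos, -0.70 (adjusted p = 0.0231) and -0.92 (adjusted p = 0.0468), as they were after median centring and in a fit of these groups alone. With α-amanitin present, Usp17la was lower in SCNT 2-cell embryos by -1.32 (SE 0.24, adjusted p = 1.9e-05), opposite in sign to the 0.80 of the 1-cell stage, which is described with no test. Zfp352 differed by 0.19 (-0.32 to 0.70, adjusted p = 0.591) and Ubtfl1 by -0.11 (-0.84 to 0.62, adjusted p = 0.836), with 43.2% of genes called. The poly(A) spike-in probe sets averaged 9.60 in treated SCNT and 6.99 in treated fertilized 2-cell embryos. At the 1-cell stage they averaged 3.73 and 6.84 in these treated origins. The part of this in the differences and their change of sign was not tested. In RNA of whole embryos, fewer embryos with a transcript and less of it in each cannot be told apart.

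Over the 10 groups each gene had its highest 3 means in the untreated 2-cell groups. Zfp352 ran from a mean log2 level of 5.61 ± 0.16 (SD, n = 4) in α-amanitin-treated fertilized 1-cell embryos to 12.91 ± 0.015 (SD, n = 4) in parthenogenetic 2-cell embryos. Usp17la ran from 6.55 ± 0.41 in treated SCNT 2-cell embryos to 12.40 ± 0.10 in parthenogenetic 2-cell embryos (SD, n = 4 each). Ubtfl1 ran from 3.65 ± 0.60 in treated SCNT 1-cell embryos to 11.69 ± 0.19 in fertilized 2-cell embryos (SD, n = 4 each). In the order of Zfp352 means, untreated fertilized 1-cell embryos (6.84) lay between the treated 2-cell fertilized (6.81) and SCNT embryos (0.15 above them) and overlapped both. For Usp17la the 3 untreated 1-cell groups were neighbours that overlapped in turn, at 8.68, 9.08 and 9.43. For Ubtfl1 the 4 treated groups were the lowest 4, at 3.65 to 4.11, and each overlapped the next. The Ubtfl1 arrays of SCNT 1-cell, parthenogenetic 1-cell and SCNT 2-cell embryos (5.81, 7.50 and 10.86) did not overlap each other.

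**Figure D4:**
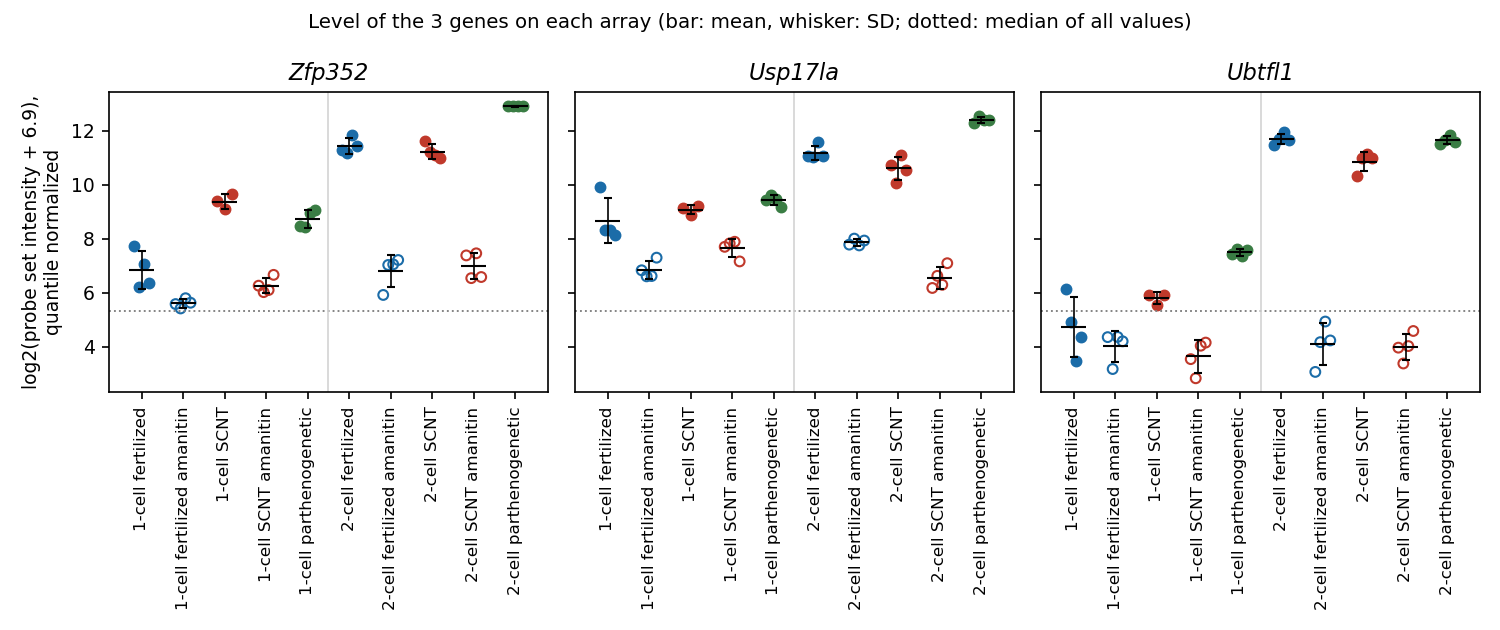
Level of each gene on every array (log2(intensity + 6.9), quantile normalized), by group, with filled points for untreated and open points for α-amanitin-treated embryos, bars for means and whiskers for SD; blue marks fertilized, red SCNT and green parthenogenetic embryos, and the dotted line is the median of all values, 5.34. Treated embryos lie low at both stages, Ubtfl1 is under the dotted line in all 4 treated groups, and the untreated 2-cell groups lie highest.

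The group means of the 3 genes correlated with each other at r = 0.950 for Zfp352 and Usp17la, 0.957 for Zfp352 and Ubtfl1 and 0.942 for Usp17la and Ubtfl1 (Pearson, n = 10 groups, which share the stage and the inhibitor). The fertilized and SCNT 1-cell groups, treated and untreated, are among the 10 and served the choice. Part of this likeness was thus fixed by the choice of the genes. The gene closest to Zfp352 was Bambi, which encodes a decoy receptor of BMP and activin signalling, at r = 0.994. It was followed by Ints6l, a homologue of an Integrator subunit, Hexim1, which encodes an inhibitor of the elongation factor P-TEFb, Fzd4, which encodes a Wnt receptor, and Bag3, which encodes a chaperone partner, at 0.965 to 0.977. Bambi had a mean log2 level of 6.17 in SCNT and 4.39 in fertilized 1-cell embryos, and 9.11 in parthenogenetic 2-cell embryos, in the same order as Zfp352. The genes closest to Usp17la were Gm7969 (0.965), Bambi, Ripk4, which encodes a kinase, Cdc5l, which encodes a splicing factor, and Gtf3c4, which encodes a subunit of an RNA polymerase III factor. Those closest to Ubtfl1 were Zfp42 (0.989), which encodes the pluripotency marker REX1, Spz1, Prps1 and Glul, which encode enzymes of nucleotide and glutamine synthesis, and Pdgfrl. In parthenogenetic and fertilized 2-cell embryos the Ubtfl1 means were close, at 11.64 and 11.69. Those of Zfp42 were 7.94 and 7.91, and of Pdgfrl 8.76 and 8.72. Spz1 was at 10.32 and 10.47, Glul at 11.95 and 12.09 and Prps1 at 11.88 and 12.42, each further apart than Ubtfl1.

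**Figure D5:**
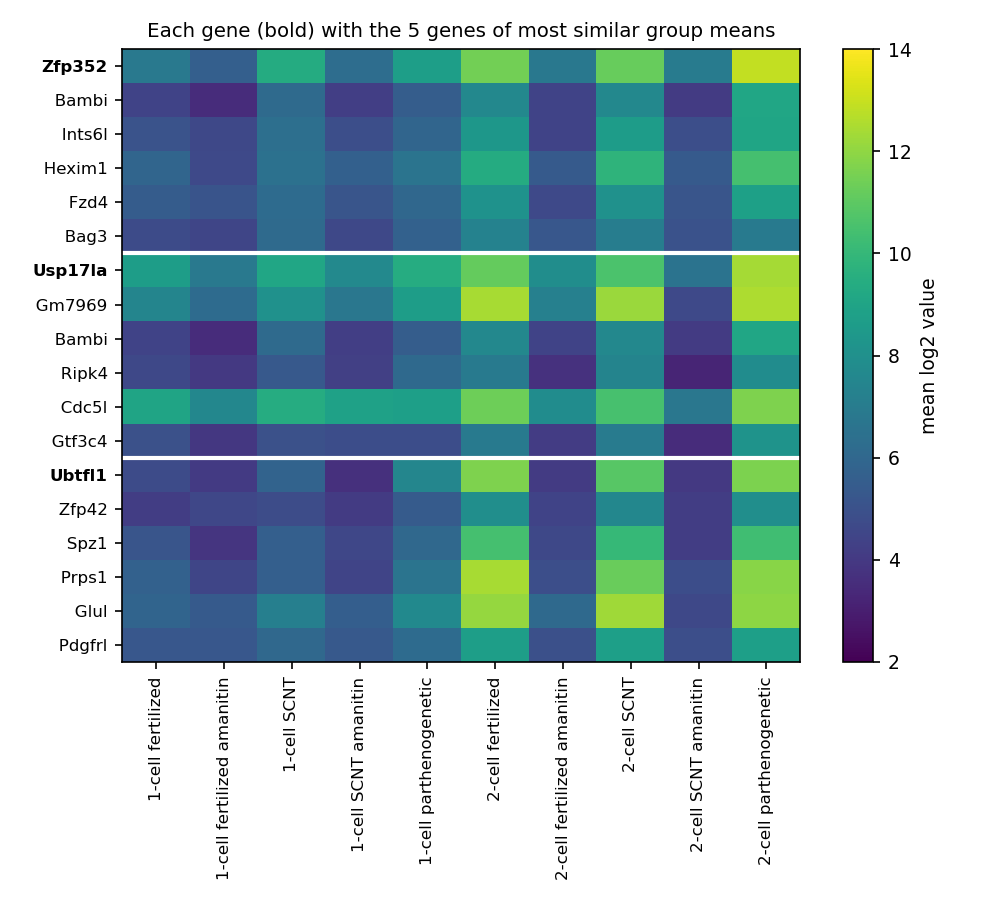
Mean log2 level in the 10 groups (columns) of each gene and, below it, of the 5 tested genes whose group means correlate most with it, on a shared colour scale. All have their brightest cells in the untreated 2-cell groups and differ in how far the 1-cell groups rise above the treated ones.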

How the data were processed

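The deposited values are linear probe set intensities of 45101 probe sets, 1 column per array, globally scaled by the authors: the mean without the highest and lowest 2% is 150.001 on every array. The software behind them is not given in the sources used here, and no detection calls were used. Groups were taken from the sample titles. The 20th percentile (6.9) was added before log2, and quantile normalization followed, since array medians ranged over 0.82. Quantile normalization assumes a like distribution of levels in all groups. Of the probe sets, 34945 named 1 gene, 932 several and 9160 none in the platform annotation, and 64 were controls; symbols were updated through the gene ID in RefSeq for 34741. Probe sets above the overall median on at least 4 arrays were kept (31153), and the one with the highest mean stood for its gene, which gave 14916 genes. 1 fit of group means over all 39 arrays was made with limma 3.58.1 (R 4.3.3; empirical Bayes with trend, 29 residual degrees of freedom, two-sided, Benjamini-Hochberg over all genes of a comparison, threshold 0.05), in 18 tested comparisons and 2 that are only described. The fit was tested on simulated data. Where a gene is near background, the difference understates the fold.

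The 3 genes and all lists were chosen with earlier results of these data known. Named genes are the 3, the 5 closest to each in group means, the genes lower in both 1-cell comparisons, the 3 largest called 2-cell differences of each list, and named relatives. Alternatives were the values as deposited, median centring, the 5th or 40th percentile as constant, no filter, no trend, replicate number as a block, the compared groups alone, an average over the probe sets of a gene or its other probe set, and each array left out in turn. The number of arrays limits the precision. Replicate numbers did not pair arrays: the residuals of same-numbered arrays correlated between -0.115 and 0.113.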

Additional observations from a re-analysis of the deposited data

Results flagged for a closer look

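In 4 of 27 sets of 4 arrays (a gene in a group) the highest or lowest array stood apart, with a gap above the 95% critical value for 4 values; chance gives about 1 in 20 sets such a gap. Usp17la was at 9.92 (log2) in replicate 1 of untreated fertilized 1-cell embryos, a gap of 0.890 of the range, and at 11.58 in replicate 3 of fertilized 2-cell embryos, a gap of 0.896. Zfp352 was at 5.92 in replicate 1 of α-amanitin-treated fertilized 2-cell embryos, below its group by 0.858 of the range. Ubtfl1 was at 3.18 in replicate 2 of treated fertilized 1-cell embryos, a gap of 0.864, where all arrays are at background.

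The rise of Ubtfl1 from the 1-cell to the 2-cell stage differed by -2.81 between parthenogenetic and fertilized embryos by a test of the difference itself. Between SCNT and fertilized embryos the rise of Zfp352 differed by -2.74 and that of Ubtfl1 by -1.90; their 1-cell arrays chose the genes, so these values are no independent support.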

How the results depend on the processing

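Of 996 recomputed values of the 54 tested differences, 945 kept their direction and their side of the threshold; 11 lost the call, 30 gained one and 10 changed sign, 1 of them of a called result. The cause was not tested. These counts include differences that are described above with no test. With the replicate number as a block (replicate block), all 54 kept their side of the threshold and their sign, and the numbers do not pair the arrays. In that fit Zfp352 was at 2.46 and Ubtfl1 at 1.01 (SCNT minus fertilized, 1-cell), described with no test.

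The following are log2 differences. SCNT minus fertilized, the Usp17la rise between stages was -1.11 as deposited, -1.29 after median centring and -0.95 with the higher constant, described with no test. Zfp352 under α-amanitin at the 1-cell stage was 0.97 as deposited, 0.69 after centring and 0.65 in the compared groups alone. It was 0.73 with the mean of its probe sets and 0.80 with the other one, and no test is read from these values. At the 2-cell stage Usp17la was called at -0.70, -0.86 and -0.57 (as deposited, centred, compared groups alone), and Ubtfl1 at -0.92, -1.08, -0.82 (higher constant) and -0.83. SCNT minus parthenogenetic, Ubtfl1 at that stage was called at -0.92, -0.94, -0.78 (higher constant) and -0.78. In the compared groups alone the 1-cell value -0.35 (Usp17la) and the difference of the Usp17la falls, -0.75, gained the call. Usp17la parthenogenetic minus fertilized, 0.75, lost it there, and no test is read for the 1-cell value 0.64 (Zfp352). The 1-cell fall of Ubtfl1 in SCNT embryos was -2.94 and -1.34 with the lower and higher constant.

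Between stages under α-amanitin, Zfp352 in SCNT embryos was 0.46 after centring, 0.33 with the mean of its probe sets and -0.064 with the other one. Ubtfl1 in fertilized embryos also changed sign (-0.061 after centring). So did uncalled values of SCNT minus fertilized under α-amanitin at the 2-cell stage, Ubtfl1 (0.018 as deposited) and Zfp352 (-0.18 with the other probe set).

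Leaving out single arrays gave the following ranges. Under α-amanitin between stages, Ubtfl1 in fertilized embryos ran from -0.21 to 0.42 (below 0 without replicate 2 of the 1-cell, -0.21, or 3 of the 2-cell treated group, -0.20) and Zfp352 in SCNT embryos from 0.57 to 0.88. At the 2-cell stage under α-amanitin, SCNT minus fertilized ran from -0.46 to 0.16 for Ubtfl1 (0.09 and 0.16 without SCNT replicate 2 or fertilized replicate 3) and from -0.11 to 0.34 for Zfp352 (-0.11 without fertilized replicate 1). Ubtfl1, parthenogenetic minus fertilized at the 2-cell stage, ran from -0.12 to 0.034 (0.034 without fertilized replicate 3). Usp17la ran from -2.01 to -1.42 for the 1-cell fall in fertilized embryos, -0.93 to -0.59 for the difference of the 2-cell falls, -1.38 to -0.79 for that of the rises, 0.22 to 0.81 and 0.57 to 1.16 for the 1-cell SCNT and parthenogenetic minus fertilized values, 0.72 to 0.97 for SCNT minus fertilized with α-amanitin and -0.73 to -0.39 at the 2-cell stage. Ubtfl1 ran from 0.66 to 1.55 for SCNT minus fertilized at the 1-cell stage, from -1.12 to -0.23 for the 1-cell fall in fertilized embryos, from 0.37 to 0.99 for the difference of the 2-cell falls, from 0.077 to 0.55 between stages under α-amanitin in SCNT embryos and from -0.66 to -0.11 for SCNT minus fertilized under α-amanitin at the 1-cell stage. Zfp352 ran from 0.10 to 0.55 for the difference of the 2-cell falls and from -0.34 to -0.075 for SCNT minus fertilized at the 2-cell stage. The rise in parthenogenetic minus fertilized embryos ran from -0.71 to -0.21 for Zfp352 and from 0.058 to 0.65 for Usp17la. The ranges given are those where a call, a sign or a value by over 1.5 times moved.

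Genes called at the 1-cell stage moved by over 1.5 times. With α-amanitin in fertilized embryos they were 900, against 1711 as deposited, 2869 after centring and 530 to 1264 with single arrays left out. In SCNT embryos they were 64, against 6 in the compared groups alone and 19 to 170. SCNT minus fertilized gave 829, against 442 and 437 to 1085, and SCNT minus parthenogenetic 2117, against 3708. Scaling moved the median gene by up to 0.26 (between stages under α-amanitin in fertilized embryos, with 3212 genes higher and 2839 lower, against 4857 and 2683 as deposited and 1003 and 4410 centred). No fit can say how much of a dim value is background, which limits Ubtfl1 in the 4 treated groups and in fertilized 1-cell embryos.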
